A study of Homo sapiens with 12 samples.

Results

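The integrated stress response genes described here are 10 genes of the ATF4 pathway: the transcription factors ATF4, ATF5, DDIT3 and CEBPB and the ATF4 targets TRIB3, CHAC1, ASNS, SESN2, DDIT4 and VLDLR. They were chosen by symbol among the 60609 genes that were counted, of which 13895 passed the filter on low counts and were tested. Of the 10 genes, 9 passed that filter and VLDLR did not. K562 is an established human cell line of chronic myeloid leukemia origin with erythroid features. FT671 is a small molecule that blocks the deubiquitinase USP7. RNA was sequenced from 3 K562 cultures that received the solvent DMSO and 3 that received FT671 at 10 μM, each harvested after 48 h, so that a single line, dose and time were measured. The study's legend speaks of 3 independent experiments with DMSO or FT671. Whether cultures of the same experiment share a replicate number is not given. A further 6 ChIP samples of the series were not analysed here.

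In the integrated stress response, the kinases EIF2AK1 (HRI), EIF2AK2 (PKR), EIF2AK3 (PERK) and EIF2AK4 (GCN2) phosphorylate the alpha subunit of the initiation factor eIF2 when cells sense heme deficiency, double-stranded RNA, misfolded protein in the endoplasmic reticulum or lack of amino acids. Phosphorylated eIF2 inhibits its exchange factor eIF2B, so that general initiation falls while translation of the ATF4 mRNA, which carries upstream reading frames, increases. ATF4 is therefore controlled to a large part at translation and by protein turnover, which RNA-seq does not measure. ATF4 protein pairs with C/EBP and other bZIP factors and activates genes for amino acid supply, redox control and, under lasting stress, cell death.

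The pairs of ATF4 with a C/EBP protein are known to bind composite elements of the form TGATGNAA, and this motif was searched on either strand around the starts of the 10 genes. In the RefSeq promoter sequences (GRCh38.p14, from 250 bases before to 50 after a start) ASNS and CHAC1 held a match, which is 2 of 10 genes, against 4.46% of the 27305 genes in the table. Within 1000 bases on either side of each RefSeq start, a window chosen after the data were seen, 7 of the 10 genes held 14 matches in all, against 20.4% of the 9863 tested genes with a listed start. The members had 1.80 starts per gene and the tested genes 1.44, so that somewhat more sequence was searched for the members. The match nearest to the start of each of the 7 genes is shown here with 11 bases on either side, read so that the motif (in capitals) runs 5′ to 3′, since these are the sequences through which ATF4 is known to act on genes of this kind.
TRIB3 (chr20:380947-380976, minus strand): cccggtccgggTGATGCAAaccggagctaa
CHAC1 (chr15:40953251-40953280, minus strand): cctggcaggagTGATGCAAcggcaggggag
DDIT3 (chr12:57520802-57520831, plus strand): gggggcggggaTGATGCAAtgtttggcaac
ASNS (chr7:97872458-97872487, minus strand): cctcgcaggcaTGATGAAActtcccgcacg
SESN2 (chr1:28259211-28259240, minus strand): ttagggttgcgTGATGAAAagggacttcac
VLDLR (chr9:2621338-2621367, minus strand): gcagttagcgcTGATGCAActatcgttgct
DDIT4 (chr10:72272967-72272996, plus strand): gtcctcggtccTGATGCAAccgtctggatc

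TRIB3 held this 30-base sequence 3 times in identical form, at 33-base steps, 403, 370 and 337 bases before its nearest RefSeq start. The 3 copies lay in exon sequence that GENCODE release 44 does not annotate as coding. The matches lay 303 bases before the start of DDIT3, in an intron of a longer annotated transcript, 209 before that of CHAC1 and 68 before that of ASNS, both in non-coding exon sequence. Those of SESN2 and DDIT4 lay outside the annotated gene, 296 and 946 bases before the start, and that of VLDLR lay 438 bases before it, in an intron. The stricter form TGATGCAA was present in the wider window of TRIB3, CHAC1, DDIT3, SESN2, VLDLR and DDIT4 (6 of 10), against 4.26% of tested genes. ATF4, ATF5 and CEBPB held no match in this window. The members were chosen as genes of the ATF4 pathway, so that an excess of matches over the background is no independent finding. A match to these letters is a description and was not tested for binding.

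Total counts ranged from 4555220 to 14250500 per library, and 3 counts, taken as the detection floor, correspond to between 0.211 and 0.659 CPM (counts per 1000000 counted reads, here with library sizes scaled by edgeR's TMM method for all values but this floor). This floor reflects counting error alone, as the reads carry no molecular identifiers. USP7, whose protein is the target of FT671, fell from 119 ± 12.3 to 33.1 ± 3.38 CPM (SD over 3 libraries). This is a log2 fold change of −1.82 (SE, standard error, 0.104, adjusted p = 2.66e-08 by edgeR). Of 10 erythroid genes typical of K562, 9 passed the filter, with a summed level of 809 to 940 CPM in DMSO and 834 to 896 CPM with FT671. Of 15 markers of T cells, B cells, monocytes, fibroblasts and epithelium, 6 passed it, with KRT8 the most abundant, and their sum was 372 to 421 CPM in DMSO and 497 to 527 CPM with FT671. CD14, MS4A1 and KRT5 were at 0 or 1 count in every library. The part of these markers in the results was not tested.

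After FT671, 6 of the 9 tested genes were lower and 1 was higher at an adjusted p of 0.05 by edgeR's quasi-likelihood test, where 26.5% of all tested genes were lower, 23.6% were higher and 50.1% were either. TRIB3, ATF5, CEBPB, CHAC1, DDIT4 and SESN2 fell, ATF4 rose, and DDIT3 and ASNS did not pass. The study's methods give a threshold of 1e-05, there with DESeq2. A figure legend of the study instead names Student's t test with a stricter threshold, which was not applied here. At 1e-05 edgeR called TRIB3, ATF5 and CEBPB, 3 of 9 genes, all lower. Of all tested genes, 4.13% were lower, 1.79% were higher and 5.92% were either at 1e-05 by edgeR. DESeq2's Wald test called 4 members at 1e-05, with ATF4, which was higher, among them. In 7 of the 9 genes every FT671 library lay below every DMSO library, which held for 30.3% of all tested genes, and in 1 gene, ATF4, every FT671 library lay above, which held for 26.8%. The median log2 fold change was −0.54 over the 9 genes and −0.01 over all genes tested. Since the measurements are shares of all reads from a culture, fewer expressing cells and less RNA per cell cannot be told apart.

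**Figure D1:**
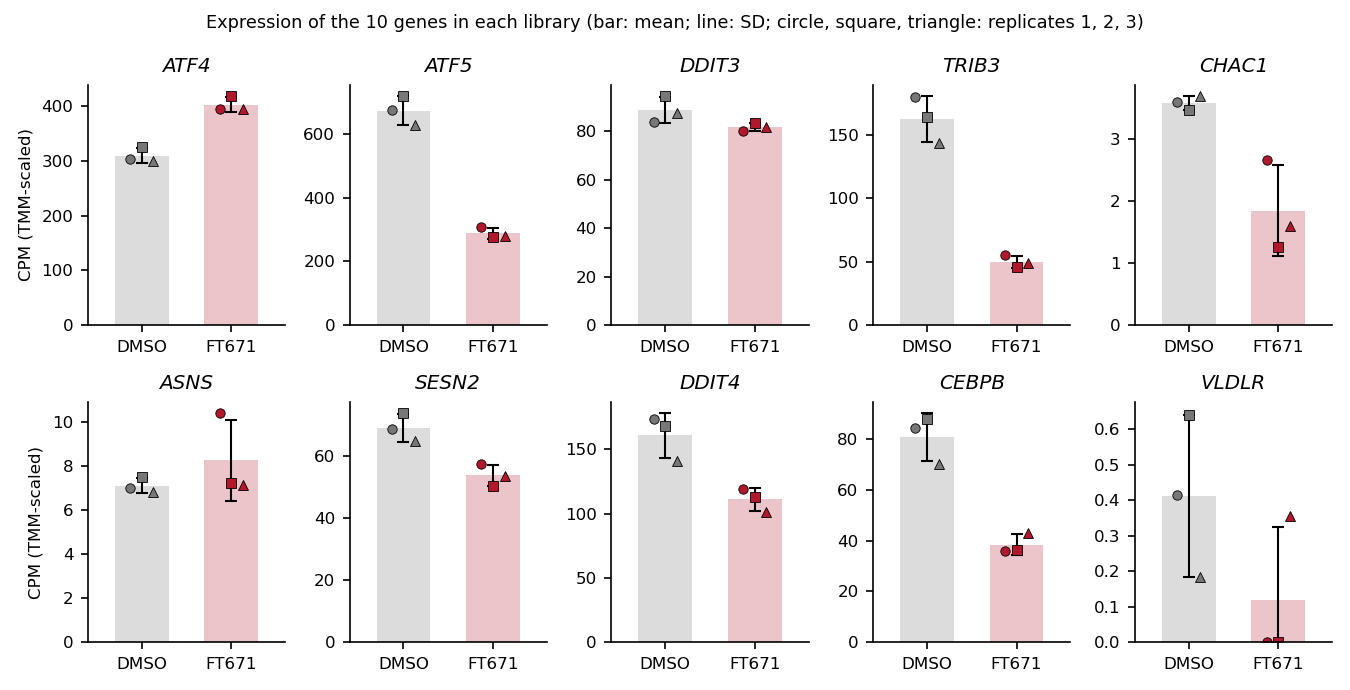
Expression in CPM (vertical axes, starting at 0) of the 10 genes in the 3 DMSO (gray) and 3 FT671 (red) libraries. Bars are means, lines the SD and symbols the replicates. ATF4 is higher in each FT671 library, ASNS and VLDLR overlap between the groups, and the other 7 genes are lower in each FT671 library.

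ATF4 (ENSG00000128272, chromosome 22 from 39519695 to 39522683 in hg38), the central activator of the response, had 304, 325 and 301 CPM in DMSO replicates 1, 2 and 3 and 395, 419 and 395 CPM with FT671. All FT671 libraries were thus above all DMSO libraries, with means of 310 ± 13.2 and 403 ± 13.8 CPM (SD over 3 libraries). The log2 fold change was 0.38 (SE 0.0678, adjusted p = 3.96e-04 by edgeR), a 1.30-fold increase. It did not pass 1e-05 with edgeR but did with DESeq2's Wald test (adjusted p = 8.07e-06). The pseudogenes ATF4P1 to ATF4P4 held at most 7 counts in any library.

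ATF5, a bZIP factor related to ATF4 that is likewise controlled through upstream reading frames and is itself an ATF4 and DDIT3 target, changed the other way. ATF5 (ENSG00000169136, chromosome 19 from 49928702 to 49933935) had 673, 718 and 626 CPM in DMSO and 307, 277 and 280 CPM with FT671. The groups were far apart, with the lowest DMSO library at 626 and the highest FT671 library at 307 CPM. The log2 fold change was −1.23 (SE 0.0755, adjusted p = 5.11e-08 by edgeR), a 2.34-fold decrease. Its annotated span overlaps the oppositely oriented NUP62, which had a log2 fold change of −0.12 (adjusted p = 0.198 by edgeR). The strand setting of the counting is not given in the sources used here.

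CEBPB (ENSG00000172216, chromosome 20 from 50190830 to 50192668) encodes C/EBPβ, a dimerization partner of ATF4 and of DDIT3. It had 84.1, 87.8 and 70.1 CPM in DMSO and 35.8, 36.3 and 43.0 CPM with FT671, with no overlap between the groups. The log2 fold change was −1.07 (SE 0.109, adjusted p = 3.43e-06 by edgeR). It missed 1e-05 when any library other than DMSO replicate 3 was left out, with adjusted p-values by edgeR of 2.67e-05 to 7.34e-05. The lncRNA CEBPB-AS1 overlaps CEBPB on the opposite strand and fell from 17.5 to 8.63 CPM (adjusted p = 1.14e-04 by edgeR), so that reads of the pair may be shared if the counting ignored strand.

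DDIT3 (ENSG00000175197, chromosome 12 from 57516588 to 57521737) encodes CHOP, the factor that links lasting stress to cell death. It had 83.9, 94.5 and 87.4 CPM in DMSO and 80.2, 83.5 and 81.8 CPM with FT671. The FT671 libraries were all lower, but the margin between the groups was small, and the log2 fold change of −0.11 (SE 0.0796, adjusted p = 0.249 by edgeR) did not pass 0.05. After a correction for gene length it was −0.25, with an adjusted p of 0.0131 by edgeR. On the opposite strand DDIT3 overlaps MARS1 and MBD6, which had log2 fold changes of −0.61 and −0.56 and mean levels in DMSO of 571 and 119 CPM.

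TRIB3 (ENSG00000101255, chromosome 20 from 362835 to 397559), a pseudokinase that is induced by ATF4 with DDIT3 and feeds back on both, showed the largest change among the 9 tested genes. Its levels were 180, 164 and 144 CPM in DMSO and 55.3, 46.0 and 49.2 CPM with FT671. Every FT671 library lay far below every DMSO library. The log2 fold change was −1.71 (SE 0.0989, adjusted p = 3.07e-08 by edgeR), or 3.27-fold lower. No other annotated gene among those counted overlaps TRIB3.

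CHAC1 (ENSG00000128965, chromosome 15 from 40952962 to 40956512), a glutathione-degrading enzyme and one of the most selective ATF4 targets, was expressed at a low level. It had 3.60, 3.48 and 3.70 CPM in DMSO and 2.67, 1.26 and 1.61 CPM with FT671, from 7 to 52 counts per library. The groups did not overlap, and the log2 fold change was −1.02 (SE 0.284, adjusted p = 0.00838 by edgeR). Without FT671 replicate 3, the deepest library of its group, the value was −0.90 and no longer passed (adjusted p = 0.0615 by edgeR).

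SESN2 and DDIT4 encode inhibitors of mTORC1, SESN2 as a leucine sensor and DDIT4 (REDD1) through the TSC complex, and both fell. SESN2 (ENSG00000130766, chromosome 1 from 28259518 to 28282491) had 68.7, 73.8 and 64.7 CPM in DMSO and 57.3, 50.5 and 53.6 CPM with FT671. Its log2 fold change was −0.37 (SE 0.0907, adjusted p = 0.00400 by edgeR). DDIT4 (ENSG00000168209, chromosome 10 from 72273919 to 72276036) had 173, 168 and 141 CPM in DMSO and 119, 113 and 101 CPM with FT671. Neither gene overlapped between the groups. The log2 fold change of DDIT4 was −0.54 (SE 0.0926, adjusted p = 2.69e-04 by edgeR), which passed 1e-05 only after the gene length correction, without DMSO replicate 3 or without the filter on low counts.

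ASNS, asparagine synthetase, a classical ATF4 target of the amino acid response, did not change detectably. ASNS (ENSG00000070669, chromosome 7 from 97851677 to 97872542) had 6.99, 7.51 and 6.84 CPM in DMSO and 10.4, 7.22 and 7.15 CPM with FT671. FT671 replicate 1 was the highest of the 6 libraries, and the other FT671 libraries lay within the DMSO range. The log2 fold change was 0.17 (SE 0.184, adjusted p = 0.476 by edgeR), and 0.01 without FT671 replicate 1. The pseudogene ASNSP1 held 8.32 CPM in DMSO and 11.9 CPM with FT671, beside 7.11 and 8.27 CPM for ASNS, without regard to length. Reads may be split between the gene and its pseudogene, which was not tested, so that the value of ASNS is uncertain.

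VLDLR (ENSG00000147852, chromosome 9 from 2621182 to 2660056), a lipoprotein receptor induced through ATF4 in other cells, had 6, 7 and 1 counts in DMSO and 0, 0 and 4 counts with FT671. In FT671 replicates 1 and 2 a count of 0 allows a level of up to 0.659 and 0.535 CPM, both above the 0.415 and 0.185 CPM of DMSO replicates 1 and 3. It did not pass the filter, and a difference was not detectable at this depth.

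**Figure D2:**
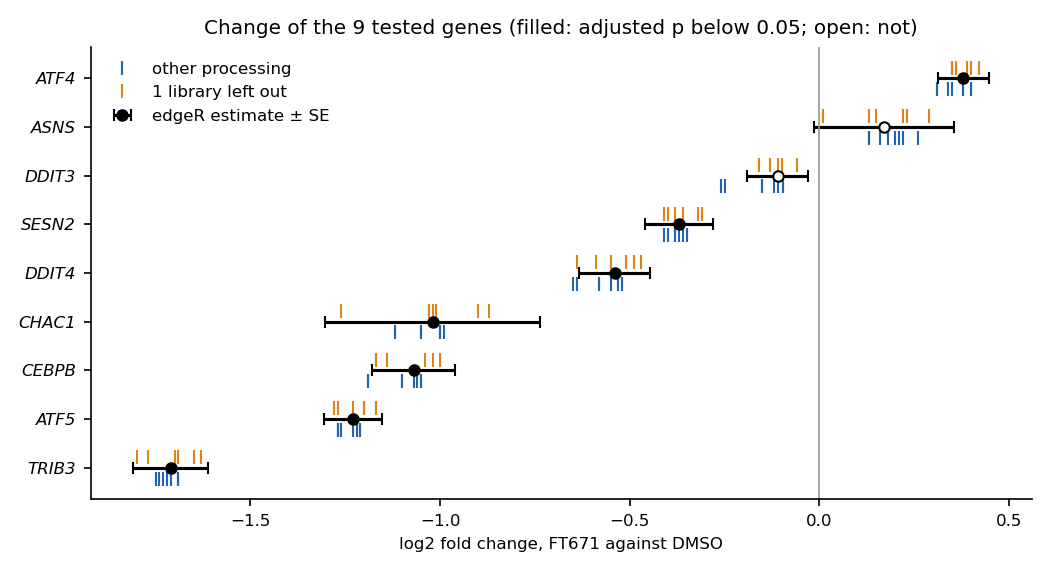
Log2 fold changes of the 9 tested genes (horizontal axis, FT671 against DMSO, points with standard errors, filled where the adjusted p was below 0.05). Ticks below each point are the estimates under other processing and ticks above it those with 1 library left out. The ticks of each gene stay on the side of 0 of its point, with ASNS reaching down to 0.01.

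Levels can be compared between genes only per length, and for this CPM were divided by the merged exon length in kilobases (RPKM). In DMSO the order from the highest was ATF5, ATF4, DDIT4, DDIT3, TRIB3, CEBPB, SESN2, CHAC1, ASNS and VLDLR, with ATF5 at 232 ± 15.9 and ATF4 at 119 ± 5.04 RPKM (SD over 3 libraries). DDIT4 and DDIT3, at 75.9 ± 8.27 and 67.8 ± 4.13 RPKM, overlapped in their ranges, and so did TRIB3 and CEBPB at 49.5 ± 5.47 and 43.9 ± 5.10 RPKM (SD over 3 libraries). All other neighbors in this order were apart in every library. After FT671, ATF4 at 154 ± 5.26 RPKM stood above ATF5 at 99.5 ± 5.70 RPKM, and TRIB3, at 15.2 ± 1.43 RPKM (SD over 3 libraries), stood at the seventh rank, overlapping with SESN2, against the fifth in DMSO, a shift that was absent with the length of the longest transcript (rank 5 in both groups). CHAC1 and ASNS stayed below 3 RPKM in every library and VLDLR below 0.05 RPKM. With the length of the longest transcript in place of merged exons, 6 of the 10 genes kept their rank in DMSO and 7 with FT671, and ATF5 and ATF4 stayed first and second in DMSO and in reverse order with FT671.

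**Figure D3:**
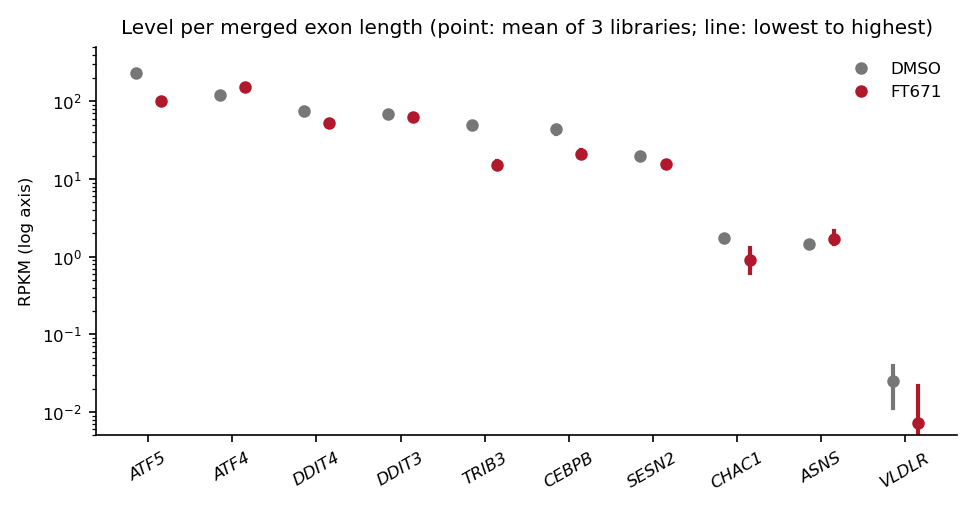
Levels per merged exon length (RPKM, logarithmic axis) of the 10 genes in the order of their DMSO means. Points are means of 3 libraries and lines run from the lowest to the highest library. The FT671 line of VLDLR runs off the axis because FT671 replicates 1 and 2 were at 0. ATF4 passes ATF5 with FT671.

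Likeness over the 6 libraries was measured as the Euclidean distance between log2 CPM values centered on each gene's mean. These values were not scaled, so that the distance depends on the size of a change. SLC25A26, GNAI2, POLDIP2, SAE1 and DRG1 were nearest to ATF4, with log2 fold changes of 0.35 to 0.40, where that of ATF4 was 0.38. Their distances were 0.0289 to 0.0784, against a median of 0.767 over all tested genes. None of the 9 tested members was among them. ASNS and DDIT3 were the nearest members, at 0.521 and 0.607, and TRIB3 was the farthest, at 2.56.

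The steps before ATF4 were described by lists of genes read against the same background of 23.6% higher and 26.5% lower. The members and all lists here were chosen with earlier results of these data known, so that an excess over the background is no independent finding. Of 10 genes for the eIF2alpha kinases and their regulators, activators and inhibitors alike, 0 were higher and 2 were lower, and the median was 0.15 in log2. The kinase of the endoplasmic reticulum, EIF2AK3, fell from 16.1 ± 2.03 to 8.26 ± 0.907 CPM (SD over 3 libraries), a log2 fold change of −0.93 (adjusted p = 2.22e-04 by edgeR). DNAJC3, a luminal co-chaperone that also inhibits these kinases, fell by 0.39 in log2 (adjusted p = 0.00401 by edgeR). The heme-regulated kinase EIF2AK1, the most abundant of the kinase mRNAs by CPM, had 528, 560 and 598 CPM in DMSO and 492, 536 and 573 CPM with FT671, overlapped between the groups and did not pass (log2 fold change −0.073, adjusted p = 0.451 by edgeR). OMA1 and DELE1, which relay mitochondrial stress to EIF2AK1, had log2 fold changes of 0.17 and 0.068 and did not pass. EIF2AK2 and EIF2AK4, with 0.28 and 0.15, did not pass. The count of higher genes in this list was 4 after the gene length correction and 3 without DMSO replicate 3.

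Of 15 genes for eIF2, eIF2B and the eIF2alpha phosphatase, 9 were higher and 0 lower, with a median of 0.22. These 9 were the 3 eIF2 subunits, the 5 eIF2B subunits and EIF2D. EIF2D, like EIF2A in the same list, is a separate factor and not a subunit of these complexes. EIF2B3, the gamma subunit of eIF2B, rose most, from 77.0 ± 2.96 to 156 ± 17.8 CPM (SD over 3 libraries), a log2 fold change of 1.03 (adjusted p = 7.60e-07 by edgeR). EIF2S2 and EIF2S1, the beta and alpha subunits of eIF2, rose by 0.63 and 0.60 in log2 (adjusted p = 2.34e-05 and 5.60e-05 by edgeR). The stress-inducible phosphatase subunit PPP1R15A (GADD34), itself an ATF4 target, had 533 ± 53.7 CPM in DMSO and 476 ± 11.3 CPM with FT671 (SD over 3 libraries) and did not pass (log2 fold change −0.16, adjusted p = 0.0982 by edgeR). The count of higher genes dropped to 5 without DMSO replicate 1, FT671 replicate 2 or FT671 replicate 3, and without the filter on low counts.

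Among 20 bZIP genes whose proteins can pair with ATF4, 15 were tested, of which 4 were higher and 8 lower, with a median of −0.37. These are 26.7% higher and 53.3% lower, against 23.6% and 26.5% of all tested genes. ATF3, a stress-induced factor downstream of ATF4, rose from 16.9, 17.1 and 15.9 CPM in DMSO to 50.6, 50.5 and 53.3 CPM with FT671. This 3.08-fold rise, a log2 fold change of 1.62 (SE 0.10, adjusted p = 5.15e-08 by edgeR), was of the opposite sign to those of TRIB3 and ATF5. MAFF and JUND rose by 0.65 and 0.58 in log2 (adjusted p = 0.00207 and 2.93e-04 by edgeR). The small MAF factors MAFG and MAFK fell by 1.39 and 1.18 (adjusted p = 4.65e-08 and 1.13e-05 by edgeR), and the AP-1 factor FOSL2 by 0.87 (adjusted p = 0.00649 by edgeR).

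Of 55 further ATF4 targets in 4 lists, 52 were tested, and 27 were lower and 11 higher, with a median of −0.25. Of all tested genes 26.5% were lower and 23.6% higher, which is the background for each of the 4 lists. In the amino acid synthesis list (12 genes tested) 6 were lower and 4 higher. ALDH1L2, the mitochondrial 10-formyltetrahydrofolate dehydrogenase, CBS, which makes cystathionine, and PHGDH, the first enzyme of serine synthesis, fell by 1.11, 1.02 and 0.85 in log2 (adjusted p = 4.29e-06, 0.00121 and 6.52e-07 by edgeR). The alanine transaminase GPT2, the proline pathway enzyme ALDH18A1 and the aspartate transaminase GOT1 rose by 0.66, 0.42 and 0.28 in log2 (adjusted p = 1.37e-04, 2.88e-04 and 0.00486 by edgeR).

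Of the 9 amino acid transporters tested, 6 were lower and 2 higher. SLC7A5 and SLC3A2, the light and heavy chain of the large neutral amino acid transporter LAT1, moved in opposite directions. SLC7A5 had 360, 354 and 343 CPM in DMSO and 187, 159 and 166 CPM with FT671, a log2 fold change of −1.05 (adjusted p = 1.56e-07 by edgeR). SLC3A2 had 416, 409 and 364 CPM in DMSO and 742, 734 and 699 CPM with FT671, a log2 fold change of 0.87 (adjusted p = 5.03e-07 by edgeR). Neither gene overlapped between the groups. The glycine transporter SLC6A9 and the glutamine transporter SLC1A5 fell by 1.34 and 0.97 in log2 (adjusted p = 1.58e-06 and 7.82e-07 by edgeR), and SLC43A1 rose by 0.30 (adjusted p = 0.0105 by edgeR). The count of lower transporters was 3 after the gene length correction.

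In the list of aminoacyl-tRNA synthetases with the tRNA exporter XPOT, 8 of 13 genes were lower and 1, XPOT, was higher. WARS1, MARS1 and IARS1 fell by 0.85, 0.61 and 0.51 in log2 (adjusted p = 2.11e-07, 1.32e-05 and 1.53e-04 by edgeR). XPOT rose by 0.48 (adjusted p = 0.00169 by edgeR). Among 18 tested stress and signaling targets, 7 were lower and 4 higher. ADM2, a secreted peptide of the adrenomedullin family, fell most of all list genes, from 12.4 ± 0.363 to 1.90 ± 0.406 CPM (SD over 3 libraries), a log2 fold change of −2.70 (SE 0.202, adjusted p = 1.93e-07 by edgeR). HERPUD1 and NUPR1 fell by 1.34 and 0.79 (adjusted p = 1.95e-07 and 0.00274 by edgeR). GDF15, a secreted stress cytokine, rose from 509 ± 62.5 to 912 ± 31.7 CPM (SD over 3 libraries), a log2 fold change of 0.84 (adjusted p = 3.07e-06 by edgeR). PMAIP1 and TXNIP rose by 0.40 and 0.31 (adjusted p = 0.0133 and 0.0367 by edgeR). The call of TXNIP was lost under 10 of 14 alternatives, DESeq2 included (adjusted p = 0.0679 by its Wald test), and that of PMAIP1 under 4, among them the removal of DMSO replicate 1 or FT671 replicate 2. FGF21 and HMOX1 did not pass the filter.

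The other arms of the unfolded protein response, which run through XBP1 and ATF6 rather than eIF2, were set beside the ATF4 genes. Of 20 genes of these arms, all tested, 17 were lower and 0 higher, against 26.5% and 23.6% of all tested genes, with a median of −0.49. The chaperone SDF2L1, the secreted MANF and the degradation factor SEL1L fell by 1.48, 1.23 and 1.11 in log2 (adjusted p = 6.96e-07, 5.57e-06 and 2.73e-06 by edgeR). At 1e-05, 7 of the 20 genes were lower, against 4.13% of all tested genes.

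**Figure D4:**
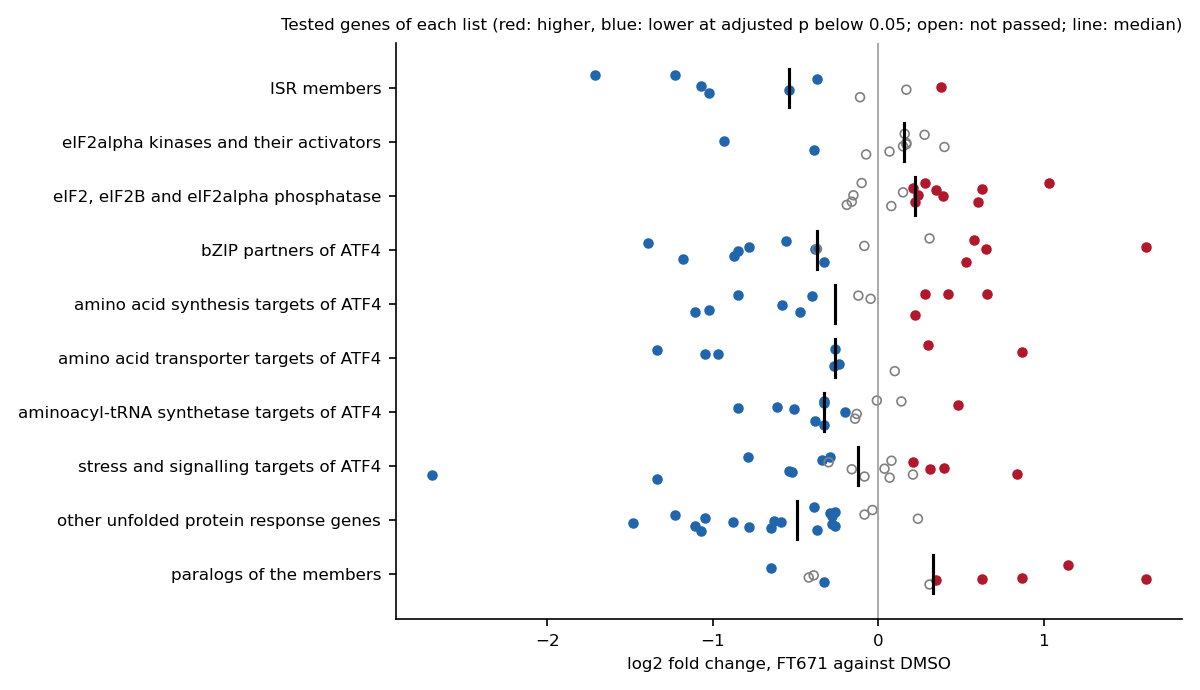
Log2 fold changes (horizontal axis, FT671 against DMSO) of the tested genes of the 10 members and the 9 lists, red where higher and blue where lower at an adjusted p of 0.05, open where not passed, with black lines at the medians. The medians of the members, the bZIP partners, the 4 ATF4 target lists and the other unfolded protein response genes lie below 0, and those of the kinases, of eIF2 and eIF2B and of the paralogs above it.

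The paralogs of the members changed in either direction. Of the 10 tested, 5 were higher and 2 lower, against 23.6% and 26.5% of all tested genes. ATF3, given above among the bZIP genes, was also in this list and is counted as higher. TRIB1 rose from 12.6 ± 1.55 to 27.4 ± 3.58 CPM (SD over 3 libraries), a log2 fold change of 1.15 (adjusted p = 1.27e-05 by edgeR), while TRIB2 fell by 0.65 (adjusted p = 7.65e-05 by edgeR) beside the fall of TRIB3. CHAC2 rose by 0.87 (adjusted p = 0.0187 by edgeR), a call that was lost without DMSO replicate 1 or FT671 replicate 1. SESN1 and SESN3 did not pass, with log2 fold changes of −0.39 and −0.42, and SESN1 passed without DMSO replicate 1 (−0.56). CEBPG, a frequent partner of ATF4, fell by 0.33 (adjusted p = 0.00929 by edgeR), which narrowly missed 0.05 without FT671 replicate 1 (adjusted p = 0.0505 by edgeR). CEBPZ, which was listed by its symbol but has no bZIP domain and is not a paralog of CEBPB, rose by 0.35 (adjusted p = 0.0319 by edgeR) but lost its call with any library other than DMSO replicate 3 left out, and CEBPD did not pass (0.31). The lipoprotein receptor LRP8 rose by 0.63 (adjusted p = 2.19e-04 by edgeR). CEBPA, CEBPE and DDIT4L did not pass the filter on low counts.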

How the data were processed

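For each of the 6 RNA-seq libraries the authors deposited whole-number read counts per gene, not normalized. Per the study's methods, KAPA RiboErase libraries were made from ribosomal RNA-depleted RNA and the paired-end reads were mapped with STAR in two-pass mode on hg38. The STAR version, annotation release and strand setting are not given in the sources used here. Of the 60609 genes, 60295 matched GENCODE release 44 by identifier without version, and the remaining 314 (0.061% of counts) kept their identifiers. Genes were filtered with filterByExpr, scaled by TMM and tested with edgeR 4.0.16 (quasi-likelihood test, no covariate, Benjamini-Hochberg adjustment over 13895 genes; R 4.3.3). A standard error is the size of the log2 fold change divided by the square root of F. The fits were tested on simulated data. Alternatives were DESeq2 1.42.0 (Wald test, size factors), library totals, other count filters, a loess correction (span 0.3) for merged exon length, the replicate number as a block, and each library left out. Sequences were taken from RefSeq (GRCh38.p14) and hg38. From each list, up to 3 genes with the highest and 3 with the lowest log2 fold change past 0.05 were named, the paralogs other than 1 that is not reported here, and the 5 genes nearest to ATF4 in log2 CPM with a prior count of 2. Other genes given by name illustrate a list and were chosen after their values were seen. Members and lists were chosen with earlier results of these data known.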

Additional observations from a re-analysis of the deposited data

How the results depend on the processing

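The number of members higher at 0.05 was 1 under every alternative run, and that of members lower lay between 5 and 7. The count past 1e-05 lay between 2 and 4. With the replicate number as a block 6 members were lower, 1 was higher and 3 passed 1e-05, as without it, and SESN1 passed 0.05 (−0.42, adjusted p = 0.0471 by edgeR). Libraries that shared a replicate number deviated from their group means with a Pearson's r over genes of 0.115, −0.0605 and 0.14. Libraries of different numbers were not compared in this way, so that these values cannot decide whether the numbers pair the cultures. Over all tested genes, 3374 were higher and 3761 lower at 0.05 with the block, against 3276 and 3687 without it. Of 125 values of the 9 tested members under alternatives, 122 kept their direction and their side of 0.05, 1 lost its call (CHAC1 without FT671 replicate 3), 2 gained one (DDIT3 after the gene length correction, with block −0.26) and 0 changed sign. CHAC1 had no value with at least 10 counts in every library. By rank, 6 members in DMSO and 7 after FT671 kept their place with the longest transcript. The motif was found near 1 member as TGATGCAA in the promoter table and near 7 in the wider window, which is longer by construction. Counts of list genes that moved by more than 1.5 times beyond those given above were those higher among stress and signaling targets (4, and 1 to 2 under 6 alternatives) and paralogs (5 with CEBPZ included, and 3 without DMSO replicate 1 or FT671 replicate 1), and counts of 0 to 2 that changed by 1 or 2. The cause was not tested. CHAC1 and VLDLR, with at most 52 and 7 counts, are limited by depth.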
